A study of Homo sapiens with 4 samples.

Results

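HCT116 cells that carried CCK transcripts after combined inhibitor treatment were compared with cells of the same library that carried none. HCT116 is a human colorectal cancer cell line. The treated culture received DAC (decitabine, an inhibitor of DNA methyltransferases, DNMT) at 500 nM for 72 h together with SB939, an inhibitor of histone deacetylases (HDAC), at 500 nM for 18 h, and is called DAC+SB. The control culture of the line received the solvent DMSO, and the medium of the treated cells was renewed every 24 h. H1299 cells, from a non-small cell carcinoma of the lung, were handled in the same way, and each combination of line and treatment was 1 library of 10x Genomics 5′ single-cell RNA sequencing.

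Of the 15289 cells in the 4 libraries, 4327 came from HCT116 DAC+SB, and 3279 of these held at least 5000 counts summed over genes and transposable elements (TE). CCK-positive cells were the 1160 of these with 3 or more CCK counts, and CCK-negative cells the 1204 with 0. The other 915 cells had 1 or 2 CCK counts and entered neither group. The 2 groups were defined by the CCK count itself, so CCK was left out of every comparison and its own values describe the choice. Both groups came from 1 library. Cells of 1 library are not replicates, so no test was made, no p-value is given, and 95% intervals cover counting error only.

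Cholecystokinin, the product of CCK, is a peptide hormone secreted by endocrine cells of the small intestine and a neuropeptide of the brain. It is made as a prohormone, cleaved and amidated, and acts through the G protein-coupled receptors CCKAR and CCKBR. Gastrin, the product of GAST, is its closest relative, shares its carboxy-terminal end and signals through CCKBR. DNA methylation and histone deacetylation hold many tissue-restricted promoters silent in cancer cells, and inhibitors of both are known to restore transcription from such promoters and from the long terminal repeats (LTR) of endogenous retroviruses.

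CCK was nearly absent without the inhibitors. The HCT116 DMSO library had 1 CCK count in 3639 cells of at least 5000 counts. No cell there had 3 or more, where 0 cells allow a share of up to 0.0824%. In HCT116 DAC+SB the same depth limit left 10428 CCK counts. The CCK-positive share was 35.4% (exact 95% interval 33.7% to 37.0%). CCK counts were uneven among the treated cells, with a mean of 3.18, a median of 1 and a highest count of 73 per cell. The 10% of cells with most CCK counts held 49.96% of them. A count of 0 was found in 36.7% of cells, whereas a Poisson count in proportion to each cell's depth would give 6.90%. The highest counts were also in excess: 581 cells had 6 or more CCK counts, against 449 under that Poisson count. The sources do not give whether these are counts of molecular identifiers or of reads, so the Poisson count serves only as a reference.

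**Figure D1:**
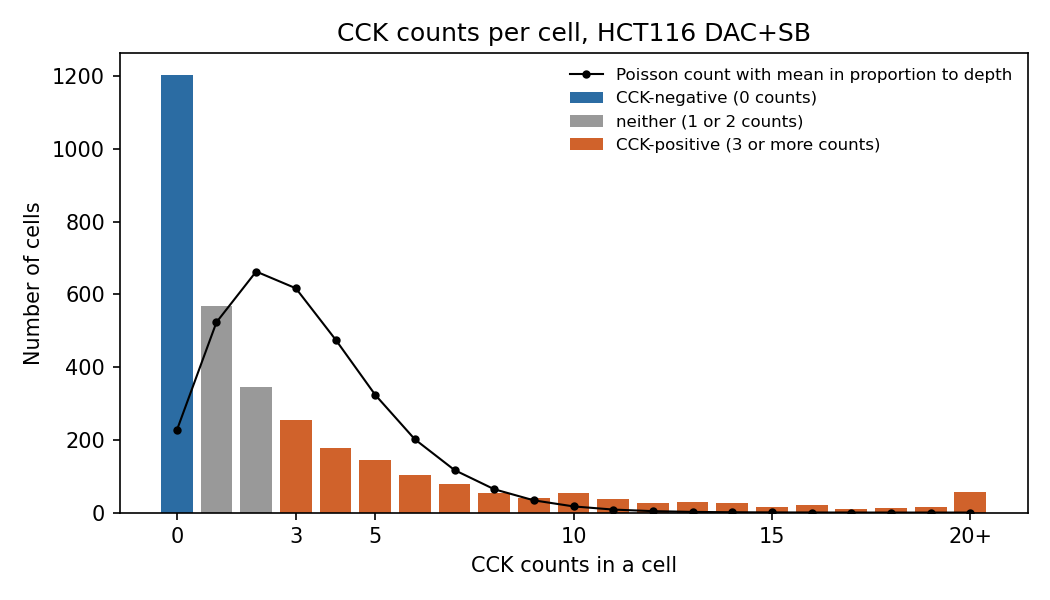
Number of HCT116 DAC+SB cells of at least 5000 counts (vertical axis) at each CCK count per cell (horizontal axis, with 20 and above joined). Bars are coloured by group and the black line is a Poisson count with a mean in proportion to depth; the 1204 cells at 0 and the long right tail both lie above the line.

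Cells next to the threshold were similar to each other in depth and differed in GAST. The 346 cells with 2 CCK counts had a median of 10134.5 counts, and the 256 cells with 3 CCK counts a median of 10717.5. GAST stood at 32.6 CPM (counts scaled to a group total of 1000000) in the cells just outside and 68.9 CPM in the cells just inside. These levels rest on 120 and 197 GAST counts. TE made up 5.43% and 5.45% of the counts of these cells. Genes under 1 CPM in the HCT116 DMSO library took a median of 0.72% and 0.74% of a cell's counts, nearly the same.

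The groups differed in depth, and several ratios are therefore also given with CCK-negative cells standardised to the depth of CCK-positive cells. The median was 11444 counts per CCK-positive cell and 9080.5 per CCK-negative cell, a ratio of 1.26. The CCK-positive share was 24.2% of cells with 5000 to 7500 counts and 65.4% of cells with 20000 or more. CCK itself, as CPM, showed no such order: it was 299, 261, 313, 309 and 261 CPM in the 5 depth intervals from shallow to deep. After each cell was thinned to 5000 counts by a random draw, a median of 1677.5 genes was detected in CCK-positive cells and 1676 in CCK-negative cells. Mitochondrial genes took 16.7% of counts in CCK-positive and 17.9% in CCK-negative cells, and ribosomal protein genes 21.3% and 20.6%.

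The CCK gene lies on chromosome 3 (GENCODE v29 on GRCh38, chr3:42257825-42266207, minus strand) and GAST on chromosome 17 (chr17:41712326-41715969, plus strand). The 250 bases before the annotated starts of both hormone genes are shown because GAST had the highest ratio of all genes tested, together with those of CHGA, a granule protein of endocrine cells, and MT1H, a metallothionein. All come from RefSeq on GRCh38.p14 and are written 5′ to 3′ on the gene's strand. The motifs marked were each searched on both strands. They are the E-box CAGCTG, the TATA motif TATAAA, the cyclic AMP response element TGACGTCA and the pattern TGCNCNC. This last pattern is looser than the metal response element core TGCRCNC, where R is A or G, so its matches can include other sequences. The 8 matches marked in MT1H, read on the strand of the match, all have A or G at that position. Capitals mark matches of the motifs named for each gene.

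CCK, upstream start, chr3:42266186-42266435, minus strand, capitals CAGCTG: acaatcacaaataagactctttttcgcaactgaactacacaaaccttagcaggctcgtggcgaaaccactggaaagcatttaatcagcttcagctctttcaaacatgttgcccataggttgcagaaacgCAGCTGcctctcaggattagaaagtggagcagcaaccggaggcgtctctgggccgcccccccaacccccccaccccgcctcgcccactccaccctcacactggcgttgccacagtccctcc
CCK, downstream start, chr3:42263948-42264197, minus strand, capitals TATAAA with 2 overlapping matches: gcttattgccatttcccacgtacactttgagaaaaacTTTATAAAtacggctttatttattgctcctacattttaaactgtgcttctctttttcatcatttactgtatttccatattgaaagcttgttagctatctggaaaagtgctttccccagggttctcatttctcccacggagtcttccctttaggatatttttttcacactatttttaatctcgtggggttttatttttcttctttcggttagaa
GAST, chr17:41712081-41712330, plus strand, capitals CAGCTG and then TATAAA read on the other strand: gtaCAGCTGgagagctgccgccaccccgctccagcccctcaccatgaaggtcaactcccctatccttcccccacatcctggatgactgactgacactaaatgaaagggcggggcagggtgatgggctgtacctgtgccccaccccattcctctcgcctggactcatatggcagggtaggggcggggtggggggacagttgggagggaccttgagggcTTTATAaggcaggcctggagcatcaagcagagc
CHGA, chr14:92922900-92923149, plus strand, capitals TGACGTCA: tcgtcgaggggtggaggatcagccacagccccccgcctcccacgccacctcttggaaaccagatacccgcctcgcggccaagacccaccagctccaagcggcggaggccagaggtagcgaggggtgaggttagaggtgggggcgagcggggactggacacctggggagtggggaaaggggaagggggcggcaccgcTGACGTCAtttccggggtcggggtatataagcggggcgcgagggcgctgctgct
MT1H, chr16:56669564-56669813, plus strand, capitals TGCNCNC with 8 matches: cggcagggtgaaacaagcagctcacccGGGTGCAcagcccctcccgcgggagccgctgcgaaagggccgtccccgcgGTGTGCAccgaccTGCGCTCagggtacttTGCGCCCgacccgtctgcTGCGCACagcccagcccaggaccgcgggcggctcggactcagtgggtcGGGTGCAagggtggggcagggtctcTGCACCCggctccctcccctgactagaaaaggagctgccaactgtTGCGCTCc

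In promoter windows of 300 bases (250 before and 50 after the start), CAGCTG was found in 17.9%, TATAAA in 11.5%, TGACGTCA in 1.85% and TGCNCNC in 55.9% of 35116 RefSeq promoters. The sequence before the upstream CCK start and that of GAST thus share CAGCTG, a motif held by many promoters. CpG dinucleotides, the sites that DNMT enzymes methylate, numbered 10 and 5 in the CCK sequences, 5 in GAST, 21 in CHGA and 22 in MT1H. A match is a feature of the letters and not evidence of binding.

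Across 8539 genes with at least 200 counts over both groups, most levels were close. The median log2 ratio of CCK-positive over CCK-negative cells was -0.03, and 3701 genes were above 0. A ratio of at least 1.5 was reached upward by 103 genes (1.21%) and downward by 48 (0.562%). A ratio of 2 was reached by 13 and 2 genes. Past 1.5-fold also at equal depth and without the cell with most counts of the gene were 85 higher and 24 lower genes, and the 12 with the most extreme ratios on each side are named. The 12 higher genes were the hormone and granule genes GAST, STC1 and CHGA, the neurofilament gene NEFM, CCNA1, MT1H, CFAP100, KRTAP19-5, NNAT, ATP1B2, AC016723.4 and RP11-328J2.1. All 12 had under 1 CPM in the HCT116 DMSO library. The 12 lower genes included the histone genes HIST1H2AJ and HIST2H2BF, and all 12 were transcribed in the DMSO library, at 6.43 CPM (KDELC1) or more.

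**Figure D2:**
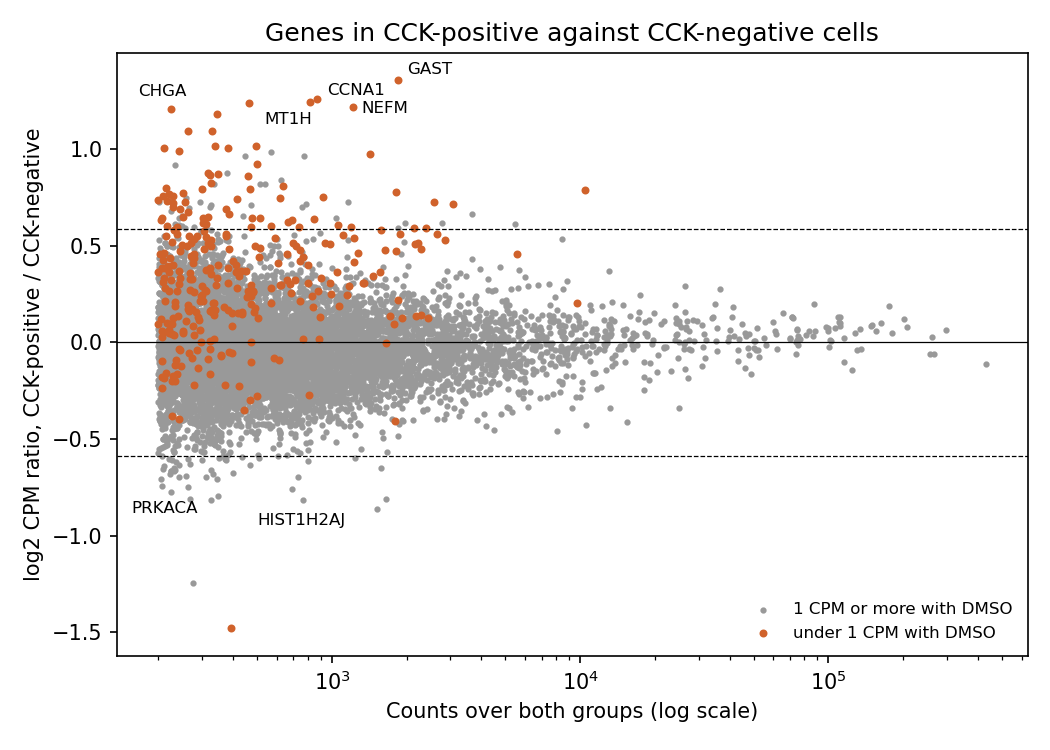
Log2 ratio of CPM in CCK-positive over CCK-negative cells (vertical axis) against counts over both groups (horizontal axis, log scale), 1 point per gene tested. Orange points are genes under 1 CPM in the DMSO library and dashed lines mark 1.5-fold; the orange points lie mostly above 0 and GAST is the highest point of all.

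GAST, the sister hormone of CCK, had 1394 counts in CCK-positive cells (100.8 CPM) and 458 in CCK-negative cells (39.4 CPM). The log2 ratio was 1.36 (95% interval 1.2 to 1.51). It was 1.53 with the CCK-negative cells standardised to the depth of the CCK-positive cells, and 1.26 without the cell with most GAST counts. After thinning to 5000 counts, a GAST count was found in 21.6% of CCK-positive cells (exact 95% interval 19.2% to 24.0%) and 11.4% of CCK-negative cells (9.64% to 13.3%), against 33.0% and 15.4% before thinning. The whole HCT116 DMSO library, with a median of 16257.5 counts per cell, held 4 GAST counts. GAST therefore differed between the groups both in summed level and in the share of cells. Its level did not climb evenly: it was 39.4 CPM at a CCK count of 0, 38.1 at 1 or 2, 71.7 at 3 to 5 and 126 at 6 or more.

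The receptors of both hormones were almost unread. CCKBR had 6 counts in CCK-positive and 2 in CCK-negative cells, and CCKAR 1 and 0. No gene of the receptor list (8 of 9 listed in the files) reached 200 counts.

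Among 26 enteroendocrine genes, such as granule proteins, prohormone convertases and the transcription factors of this lineage, 6 had enough counts. Their median log2 ratio was 0.26, and 1 of them, CHGA, passed 1.5-fold upward. All 8539 genes tested had a median of -0.03, and 1.21% passed 1.5-fold upward. CHGA (chromogranin A) stood at 11.9 and 5.16 CPM, a log2 ratio of 1.21 (0.77 to 1.66). The factors PAX6 and ISL1 had ratios of 0.31 and 0.25, and PCSK1N, an inhibitor of a prohormone convertase, 0.26. Each of these had an interval that spanned 0. CPE and PAM, the carboxypeptidase and the amidating enzyme that finish peptide hormones, were at -0.08 and -0.07, also with intervals that spanned 0. Genes that define the lineage were at the edge of detection, with NEUROD1 at 6 and 7 counts, INSM1 at 5 and 2, NEUROG3 at 2 and 0, PCSK1 at 0 and 1 and SST at 0 and 0. Other granule genes, also below the minimum, were mixed. CHGB had 13 and 15 counts (-0.46), SCG2 45 and 41 (-0.12) and SCG3 33 and 17 (0.71). The hormone gene PYY had 61 and 29 counts (0.82). Among the 6 tested genes, CHGA thus had the highest ratio while CPE and PAM were nearly level.

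Other secreted peptides gave a mixed picture. Of 24 neuropeptide and hormone genes, 8 were tested, with a median of 0.31. Against 1.21% of all genes tested, 1 of these 8 passed 1.5-fold upward. That gene was STC1, which encodes the secreted glycoprotein stanniocalcin 1, at 17.1 and 8.0 CPM and a log2 ratio of 1.09 (0.74 to 1.45). NPPC (C-type natriuretic peptide) reached 0.58 and POMC (pro-opiomelanocortin) 0.34. Of the members read with DMSO, GAL (galanin) was at 343 and 353 CPM (-0.04), NMU (neuromedin U) at 193 and 160 CPM (0.27), VGF at 95.8 and 103 CPM (-0.10), NMB (neuromedin B) at 0.26 and STC2 (stanniocalcin 2) at 0.38. NPY (neuropeptide Y) did not reach the minimum, with 35 counts in CCK-positive and 3 in CCK-negative cells.

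NEFM, the medium neurofilament chain, was the member of the neuronal list with the highest ratio. It stood at 64.9 CPM in CCK-positive and 27.9 CPM in CCK-negative cells, a log2 ratio of 1.22 (1.03 to 1.41), and 1.45 after depth standardisation. Thinned to 5000 counts, 19.5% of CCK-positive and 10.4% of CCK-negative cells had a NEFM count. NEFM was higher at each step of the cell's CCK count, at 27.9, 34.8, 43.0 and 84.1 CPM. Of the list's 24 genes 18 were tested, with a median of 0.12, and NEFM was the 1 past 1.5-fold upward. Among all genes tested, 1.21% were past it upward. THY1, a surface glycoprotein of neurons, had 0.53, UCHL1, a neuronal ubiquitin hydrolase, 0.51 and NEFH, the heavy neurofilament chain, 0.47. Those 3 were under 1 CPM with DMSO, whereas TUBB3, a neuronal tubulin read at 70.9 CPM with DMSO, had 0.09 and ENO2, a neuronal enolase read at 27.4 CPM, had -0.36. The list was not sorted by its DMSO level throughout: SYT11 and DPYSL3, also under 1 CPM with DMSO, had -0.12 and 0.05, and SYT1, read at 19.8 CPM, had 0.27.

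Metallothioneins are small proteins that bind zinc and copper. Over all genes tested, 3701 of 8539 were above 0 and 1.21% passed 1.5-fold upward. Of 11 metallothionein genes 9 were tested, 8 were above 0, the median was 0.30 and 3 passed 1.5-fold upward. MT1G was the most abundant of these 3, at 510 and 295 CPM (log2 ratio 0.79), and a count was found in 58.8% and 46.0% of cells thinned to 5000 counts. MT1A had 0.78. MT1H had the highest ratio, 1.246 (1.02 to 1.48), at 43.5 and 18.3 CPM. Its 601 counts in CCK-positive cells lay in 119 of 1160 cells, with 40 in 1 of them. Thinned to 5000 counts, 6.12% of CCK-positive cells (4.81% to 7.66%) and 3.99% of CCK-negative cells (2.95% to 5.25%) had an MT1H count. These intervals overlap. The 2 members read most strongly with DMSO had lower ratios, with MT2A at 0.19 and MT1E at 0.18. The family was not ordered by its DMSO level throughout. MT1X, read at 6.42 CPM with DMSO, had the lowest ratio (-0.17). MT1F, at 31.4 CPM with DMSO, had 0.29 and MT3, at 0.03 CPM, had 0.30. MT1H did not follow the CCK count in order, with 18.3, 61.0, 54.0 and 34.2 CPM from 0 CCK counts to 6 or more, while MT1G had 295, 479, 461 and 554 CPM. Metallothionein genes resemble each other in sequence, so the split of counts among them is uncertain.

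CCNA1 encodes cyclin A1, a cyclin of male meiosis. It had 46.6 and 19.4 CPM and a log2 ratio of 1.26 (1.04 to 1.49), and was at 19.4, 27.8, 33.0 and 58.5 CPM over the CCK intervals. CFAP100, a cilium and flagellum protein, was at 24.8 and 10.5 CPM, with 46 of its 343 counts in CCK-positive cells from 1 cell and a ratio of 1.03 without that cell. NNAT (neuronatin) was at 25.2 and 12.5 CPM, ATP1B2, a beta chain of the sodium pump, at 17.2 and 8.52, and KRTAP19-5, a hair keratin-associated protein, at 13.6 and 6.37. AC016723.4 and RP11-328J2.1 were at 18.2 and 8.0 CPM and at 19.4 and 9.64 CPM. These genes belong to unlike tissues and had in common a level near 0 with DMSO.

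**Figure D3:**
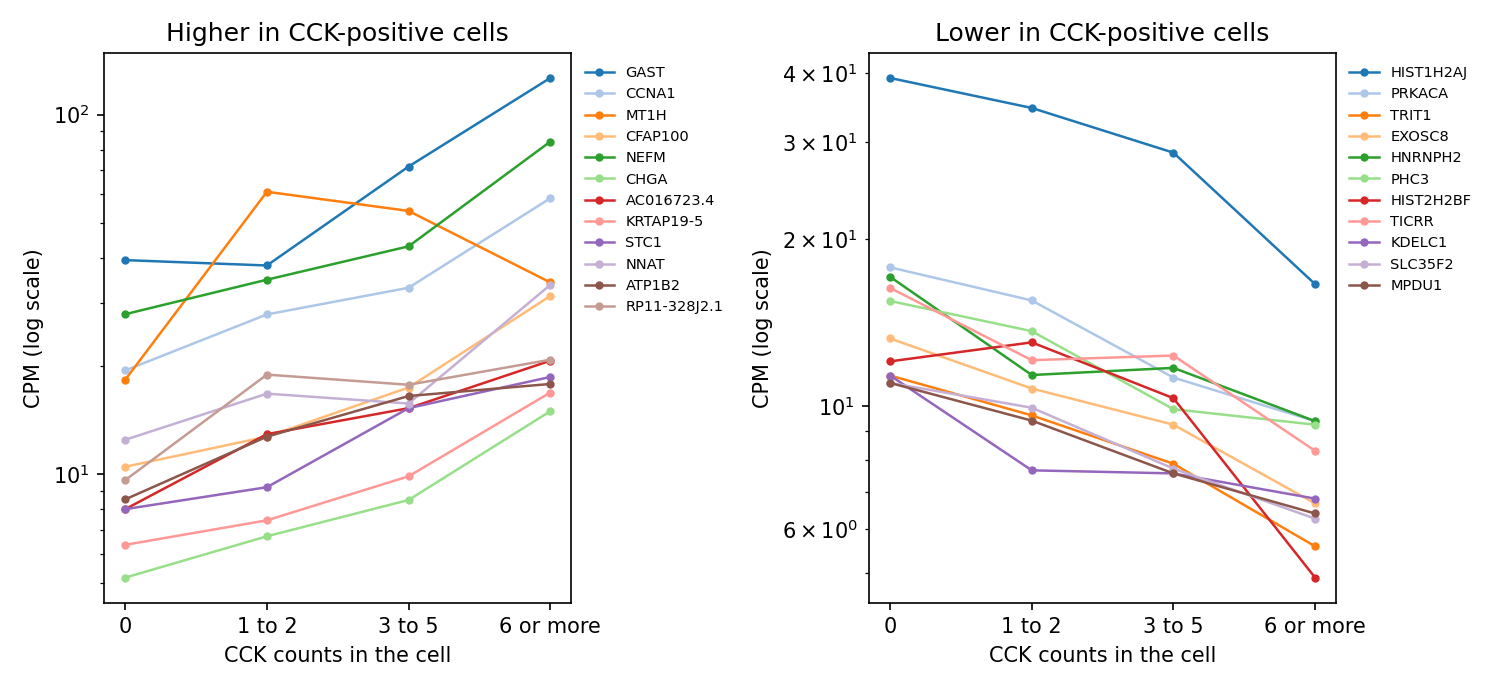
CPM (vertical axes, log scale) of the 12 genes named as higher (left) and 11 of the 12 named as lower (right) in HCT116 DAC+SB cells with 0, 1 to 2, 3 to 5 and 6 or more CCK counts (horizontal axes). Lines join the values of 1 gene; in cells with 6 or more counts GAST is at 126 and HIST1H2AJ at 16.6 CPM, and MT1H is highest, at 61.0 CPM, in cells with 1 to 2.

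Cancer-testis genes, which are normally read in the germ line and silenced by methylation elsewhere, were mostly on the higher side. Of 41 genes 19 were tested, 17 were above 0, the median was 0.30 and 4 passed 1.5-fold upward. Over all genes tested, 3701 of 8539 were above 0 and 1.21% passed 1.5-fold upward. PAGE2 had 19.9 and 11.9 CPM (log2 ratio 0.74) and MAGEA1 14.2 and 9.12 CPM (0.64). TEX14, a germ cell bridge protein, had 55.5 and 33.5 CPM (0.73), and GAGE12J had 49.4 and 32.4 CPM (0.61, and 0.58, inside 1.5-fold, without the cell with most of its counts). The 2 below 0 were MAGEB2 (-0.02), already at 64.1 CPM with DMSO, and MAGEB1 (-0.22), which was at 0.43 CPM with DMSO. Counts of the PAGE, GAGE and MAGE families, whose copies are near identical, are uncertain between members.

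The level in the DMSO library sorted the ratios of all genes. The 297 genes tested that were under 1 CPM with DMSO had a median log2 ratio of 0.33. Of them 257 (86.5%) were above 0, against 3701 of all 8539 genes tested. Of the 297, 66 (22.2%) passed 1.5-fold upward and 1 (0.337%) downward, against 1.21% and 0.562% of all genes tested. The 1084 genes at 1 to 10 CPM had a median of 0.05, and the 6016 genes at 10 to 100 CPM and the 1142 genes at 100 CPM or more both had a median of -0.05. This grouping was chosen after the named genes had been seen. The order was also present among genes of like level in the treated cells. At a treated level of 16 to 32 CPM, 67 genes under 1 CPM with DMSO had a median of 0.32 and 2354 others one of -0.05. At 64 CPM or more, the medians were 0.48 over 26 genes and -0.02 over 1511.

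**Figure D4:**
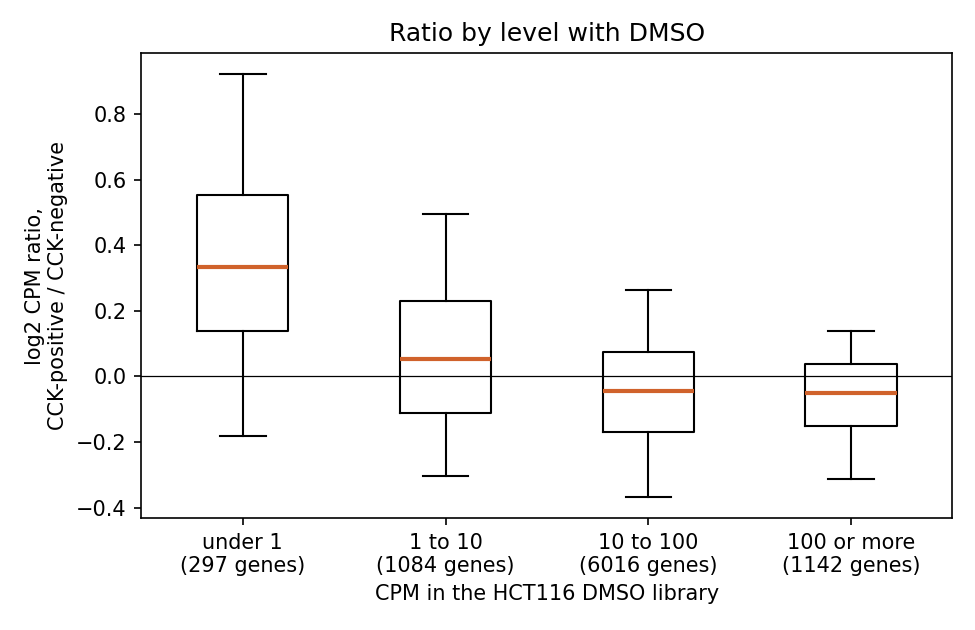
Log2 ratio of CPM in CCK-positive over CCK-negative cells (vertical axis) for genes grouped by CPM in the HCT116 DMSO library (horizontal axis). Boxes span the quartiles with the median in orange and whiskers reach the 5th and 95th percentiles of genes; the median is 0.33 under 1 CPM and -0.05 at 10 CPM or more.

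The same was seen cell by cell. Genes under 1 CPM with DMSO held a median of 0.81% of a thinned CCK-positive cell's counts (quartiles 0.62% to 1.04%) and 0.62% of a CCK-negative cell's (0.42% to 0.84%). A median of 28.5 and 22 of them was detected. The quartile ranges of the groups overlapped. By CCK count, the median share was 0.62% at 0, 0.70% at 1 or 2, 0.74% at 3 to 5 and 0.88% at 6 or more. The gene median of 0.33 was 0.39 after standardisation to the depth of the CCK-positive cells, 0.34 after standardisation to their S phase and G2/M share, and 0.27 after standardisation to their TE share.

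At 1.5-fold fewer genes were lower than higher. HIST1H2AJ, a histone H2A gene, had 22.3 CPM in CCK-positive and 39.1 CPM in CCK-negative cells, a log2 ratio of -0.81 (-1.03 to -0.60), and HIST2H2BF, a histone H2B gene, had -0.69. HIST1H2AJ was lower at each step of the CCK count, at 39.1, 34.6, 28.7 and 16.6 CPM. PRKACA, a catalytic chain of cyclic AMP-dependent protein kinase, had 10.3 and 17.8 CPM (-0.79). EXOSC8, a subunit of the RNA exosome, had -0.75 and TICRR, a regulator of replication origins, -0.68. Further genes were TRIT1, HNRNPH2, PHC3, KDELC1, SLC35F2 and MPDU1, between -0.77 and -0.67. The lowest ratio of all, of RP11-432M8.17 (-1.48), became -0.57 after depth standardisation, inside 1.5-fold, so the rule did not name that gene. With CCK-positive cells taken as those with 1 or more CCK counts, HNRNPH2 and KDELC1 were the 2 of these 12 genes that stayed past 1.5-fold, whereas all 12 higher genes did.

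Genes of the cell cycle were lower as groups, by less than 1.5-fold for nearly every member. Over all genes tested, 3701 of 8539 were above 0 and 0.562% passed 1.5-fold downward. Of 41 S phase genes 37 were tested, 34 of them were below 0, the median was -0.20 and 1 passed 1.5-fold downward. This was MCM5, a subunit of the replicative helicase, at 11.8 and 17.9 CPM (-0.60, and -0.58, inside 1.5-fold, without the cell with most of its counts), and TYMS, the thymidylate synthase, had -0.55. All 52 G2/M genes were tested, 46 were below 0, the median was -0.21 and none passed 1.5-fold, with KIF2C, a mitotic kinesin, at -0.55. Per thinned cell the S phase list took a median of 0.12% of counts in CCK-positive and 0.16% in CCK-negative cells, and the G2/M list 0.30% and 0.36%. Standardised to the depth of the CCK-positive cells, the medians of the lists were -0.26 and -0.30.

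The medians of the silencing and heat shock lists were also below 0. Over all genes tested, 3701 of 8539 were above 0 and 0.562% passed 1.5-fold downward. Of 16 genes of DNA methylation and silencing 11 were tested, 8 below and 3 above 0. Their median was -0.15 and 1 gene passed 1.5-fold downward. It was HDAC1, a deacetylase of the class that SB939 inhibits, at 25.4 and 38.8 CPM (-0.61). Over the CCK intervals HDAC1 was at 38.8, 33.6, 26.2 and 24.6 CPM. UHRF1, which guides DNMT1 to replicated DNA, had -0.47 and DNMT1 itself, a target of DAC, -0.19. Of 15 heat shock genes 13 were tested and all 13 were below 0, with a median of -0.25. HSPA1B was the 1 past 1.5-fold downward, at -0.65, and came inside it, at -0.56, after depth standardisation. HSPA8, the constitutive HSP70, had -0.43.

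Interferon-stimulated genes, which are induced when cells sense viral or TE-derived RNA, had a median of 0.16 over 16 of 42 tested. Of them 1 passed 1.5-fold upward, ISG20, an RNA exonuclease, at 26.4 and 15 CPM (0.82). The regulator IRF7 had 0.43 and ISG15 0.34. Of the 16, 11 were above and 5 below 0, with IFIT5 at -0.37 and LGALS3BP at -0.28. Others did not reach the minimum, such as MX1 at 14 and 12 counts and IFIT3 at 0 and 4. All 6 tested genes of MHC class I presentation (14 listed), which include B2M, were below 0, 3 of them with an interval below 0. Their median was -0.11 and none passed 1.5-fold. Over all genes tested, 3701 of 8539 were above 0, with a median of -0.03. At 1.5-fold, 1.21% of all genes tested were higher and 0.562% lower.

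Genes of cell identity and stress did not separate the groups at 1.5-fold, with few exceptions. Among all genes tested, 1.21% passed 1.5-fold upward and 0.562% downward. None of 7 tested epithelial genes of HCT116 passed, and KRT19 and KRT18, keratins of simple epithelium, had 0.30 and 0.28. The 3 tested genes of colon differentiation (23 listed) had a median of 0.31 with none past 1.5-fold. They went both ways, with LGALS3 at 0.32, KLF4 at 0.31 and CA2 at -0.29 (-0.47 to -0.10). The others were below the minimum, such as MUC2 at 7 and 8 counts and CEACAM5 at 0 and 1. None of 8 mesenchymal genes passed, and 4 were above and 4 below 0, from the repressor ZEB1 at -0.56 to THY1, also in the neuronal list, at 0.53. Among 17 tested genes of the CREB and AP-1 list, which also holds NR4A and CRTC genes, the median was 0.09 and none passed. Among 20 p53 targets the median was -0.02 and 1 passed upward, SFN (14-3-3 sigma), at 173 and 109 CPM (0.66), while CDKN1A, the inhibitor p21, had -0.05. The 11 tested apoptosis genes had a median of 0.06, and BIK, a pro-apoptotic protein, passed upward at 0.62 (0.58, inside 1.5-fold, without the cell with most of its counts). In a list of HDAC inhibitor responses 22 were tested, the median was -0.02 and CDKN1C, the inhibitor p57, passed upward at 0.59 but came inside 1.5-fold after depth standardisation (0.52) and without the cell with most of its counts (0.54). Markers of blood, vessel and stromal lineages, which a pure line should lack, were below the minimum in all 11 genes listed and none was at 0 in both groups. Their summed level was 12.7 CPM in CCK-positive and 8.95 CPM in CCK-negative cells, of which CD3D, a T cell receptor chain, held 78 and 40 counts and PTPRC, the pan-leukocyte antigen, 2 and 1. In the HCT116 DMSO library CD3D had 2 counts (0.03 CPM), PDGFRB, another of the 11, 46 (0.73 CPM) and PTPRC 0. The part of these markers in the other results was not tested.

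**Figure D5:**
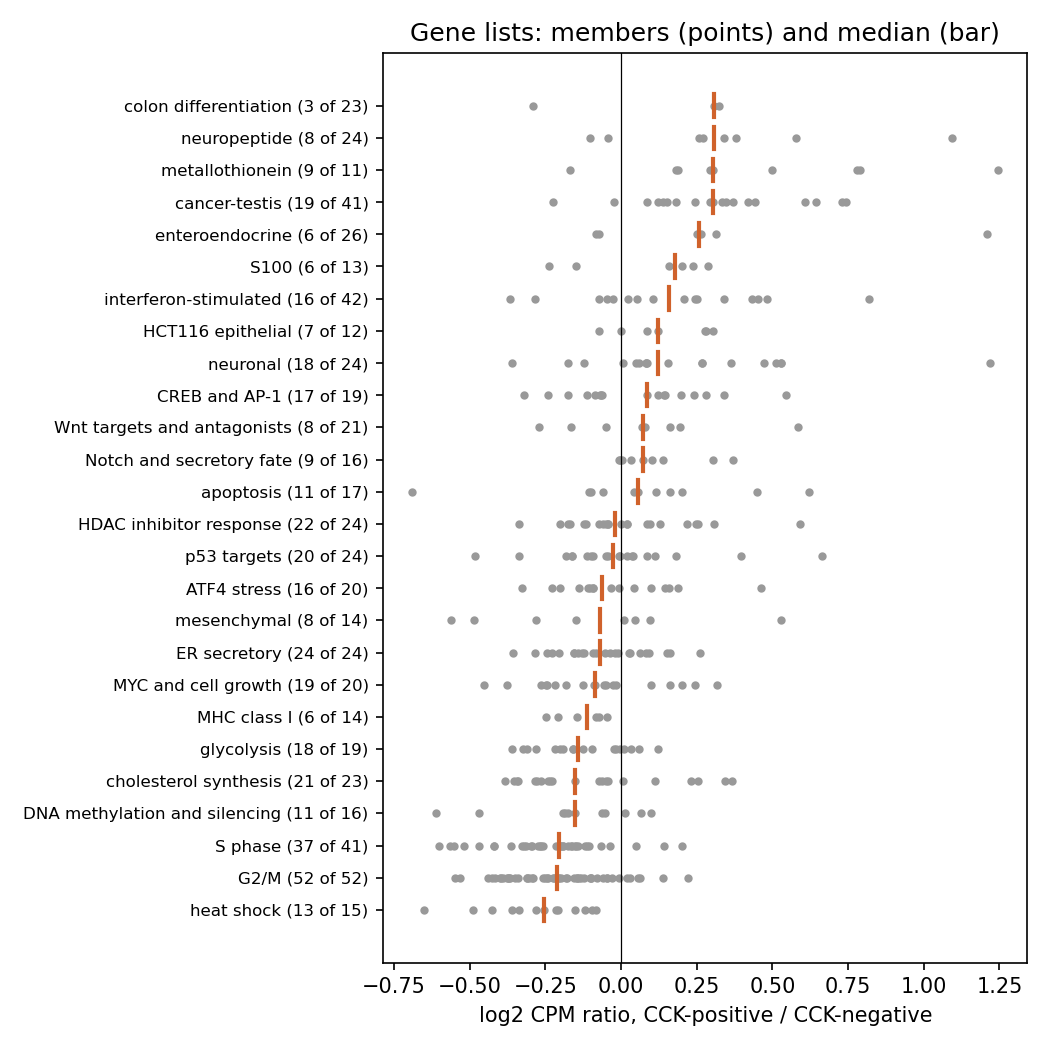
Log2 ratio of CPM in CCK-positive over CCK-negative cells (horizontal axis) for the tested genes of each list (grey points), with the list's median (orange bar) and, in brackets, the number tested of the number in the list. Colon differentiation, neuropeptide, metallothionein and cancer-testis genes have the highest medians, 0.30 to 0.31, and heat shock, G2/M and S phase genes lowest. The colon differentiation median rests on 3 genes, of which 1 is below 0.

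GENCODE v29 lists 20 other genes within 1 Mb of CCK that the files hold, 6 of them with 200 counts or more. The log2 ratios of these 6 ran from -0.04 (CTNNB1) to 0.19 (SS18L2) and none passed 1.5-fold. The other 14 had too few counts, among them LYZL4, which was nearly unread with DMSO, with 39 and 21 counts.

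Transposable elements took a larger part of the counts in CCK-positive cells. TE counts were 5.81% of all counts there and 5.14% in CCK-negative cells, a log2 ratio of 0.18, or 0.26 after depth standardisation. The share was higher in CCK-positive cells in each of the 5 depth intervals, by the most at 15000 to 20000 counts, with 5.23% and 3.97%. Thinned to 5000 counts, the median cell held 4.95% and 4.10% TE counts. Of 138 TE families tested, 96 were above 0, 9 (6.52%) passed 1.5-fold upward and 2 (1.45%) downward.

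The naming rule was met upward by 7 TE families, and the 6 with the highest ratios are named. All 6 were LTR elements of endogenous retroviruses. The family left out by this limit was MER44B, a DNA transposon, at 12.1 and 8.09 CPM (0.59, and 0.62 depth-standardised). MER51C had 12.9 and 3.61 CPM, a log2 ratio of 1.84, and 0.78 without the 1 locus that held 65.6% of its counts. MLT2A1 had 29 and 13 CPM (1.16) and its relative MLT2A2 11.6 and 5.42 CPM (1.09). MSTC had 17.5 and 9.98 CPM (0.81), with 1.27 after depth standardisation, 79.6% of counts from 1 locus and 0.60 without it. LTR8, the most abundant of the 6, had 98.1 and 56.5 CPM (0.80) and LTR13_ 34.4 and 20.9 CPM (0.72). The higher ratios were thus found in sparse families.

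The abundant families differed less. Families named LTR12 summed to 33518 and 29234 CPM, a log2 ratio of 0.20. Of the 7 tested, 5 were above and 2 below 0. LTR12C, with most of the counts, had 0.23, while LTR12D and LTR12 were level at -0.001 and -0.006. Families named THE1, from another group of retroviral LTRs, summed to 5392 and 4018 CPM (0.42), and all 5 tested were above 0. Alu families, short elements without LTRs, summed to 0.08. The 3′ end families of the long element L1 were all 16 below 0, with a summed ratio of -0.37, which depth standardisation brought to -0.04. Families for the 5′ end of L1, where its own promoter lies, summed to 0.22, or 0.37 standardised, with 3 of 5 tested families above 0 and a median family ratio of 0.07.

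In H1299 the inhibitors gave far fewer CCK counts. With DAC+SB, 204 of 3690 cells of at least 5000 counts (5.53%) had a CCK count and 20 had 3 or more, against 6 of 3548 cells with any count under DMSO. Cells with at least 1 CCK count were therefore compared with cells at 0 in both lines, a looser grouping. They were again deeper in H1299, with medians of 20221.5 and 15646.5 counts. In H1299, NEFM was at 16.6 and 5.09 CPM, a log2 ratio of 1.71 (1.31 to 2.08), and its HCT116 ratio with the same grouping was 0.91. MT1H had 1.22 (0.87 depth-standardised) and 1.47, and CCNA1 1.03 and 1.00. AC016723.4 and KRTAP19-5 had 0.54 and 0.76 in H1299, with intervals that span 0, and the TE family MER51C 1.02 (0.45 to 1.56). The ratio in H1299 was below 0 for other genes higher in HCT116: it was -1.28 for CFAP100, on 2 and 65 counts, -0.48 for RP11-328J2.1, -0.34 for NNAT, -0.21 for ATP1B2 and -0.07 for STC1, each with an interval that spans 0. MT1G and MT1A had -0.11 and -0.44 in H1299, with intervals that also span 0. GAST had 3 and 9 counts in H1299, too few for a ratio to be read, and CHGA was at 1.15 and 2.35 CPM, with an interval of the log2 ratio from -2.67 to 0.23. The H1299 TE share was 3.66% in cells with a CCK count and 3.05% without. Genes under 1 CPM in the H1299 DMSO library had a median ratio of 0.02 over 689 genes, and those of HCT116, under this looser grouping, 0.26 over 443. These lines were not compared by a test, since each has 1 treated library.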

How the data were processed

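Raw counts per cell, for gene features and for TE features, were deposited by the authors in a pair of long tables; cell names carry the library. Per the submitters' processing notes, CASAVA and STAR and the builds GRCh38 and hg38 are named, with no role; the sources used here do not give whether these are counts of molecular identifiers or of reads. A numbered or joined feature can be unlisted where it was low, so a level of 0 with DMSO is a listed value and not a proof of absence. Of 4 libraries, 1 per line and treatment, totals ran from 38927267 to 64524196 counts. Between 60 and 71 barcodes per library also occurred in another. Columns of per-sample values that matched no sample numbered 0.

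Counts of features naming 1 gene were summed per group, without strand information, and divided by the group's gene and TE counts without CCK (CPM). Ratios carry exact conditional binomial 95% intervals; shares carry exact Clopper-Pearson 95% intervals. Both cover counting error only, at group totals of 13836585 (CCK-positive) and 11622214 (CCK-negative) counts, and a count of 0 was given a limit of 3 counts. Features needed 200 counts over both groups, and 1.5-fold was called. Depth standardisation weighted CCK-negative cells to the depth intervals from 5000, 7500, 10000, 15000 and 20000 counts of the CCK-positive cells. Named genes were the 12 highest and 12 lowest (TE families, 6) past 1.5-fold also after depth standardisation and without the cell with most counts, plus list members; 1 of the 12 lower genes is not reported here. Members and lists were chosen with earlier results of these data known. Doublets were not called; the deepest 5% of cells were dropped in an alternative. Alternatives covered the CCK threshold, thinning, depth, mitochondrial share, denominator, joined names, minimum counts and fold. The scripts were tested on simulated data and used Python 3.11.15, numpy 2.4.6, scipy 1.17.1, pandas 2.3.3 and matplotlib 3.10.9.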

Additional observations from a re-analysis of the deposited data

Results flagged for a closer look

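A few genes had ratios of opposite sign in the 2 lines when cells with at least 1 CCK count were set against cells at 0, with counting intervals on opposite sides of 0. HIST1H2AJ, a histone H2A gene, had a log2 ratio of -0.52 in HCT116 DAC+SB and 0.69 in H1299 DAC+SB. EXOSC8, an RNA exosome subunit, had -0.55 and 0.42. MT2A, the most abundant metallothionein, had 0.16 and -0.03. The difference between the lines was not tested in these 3 genes, since each line has 1 treated library.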

How the results depend on the processing

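No paired analysis was possible because both groups came from 1 library and no test was made. None of the 24 genes and 6 TE families named by the size of their ratio changed sign under any alternative run. List members near 0 could, such as DPYSL3 (0.05, and -0.11 depth-standardised). The medians of 4 lists close to 0 did in some: mesenchymal genes ranged from -0.15 to 0.10, HDAC inhibitor responses from -0.05 to 0.11 (0.04 depth-standardised), ATF4 stress genes from -0.13 to 0.03 and p53 targets from -0.06 to 0.04. Of the values of single genes and TE families under alternatives, 418 stayed within the set limits and 32 moved; of list medians, 425 and 12. All 12 genes named as higher stayed past 1.5-fold in all 15 alternatives run for each, whereas 10 of the 12 lower genes came inside 1.5-fold in at least 1. Depth standardisation and leaving out the cell with most counts are among these alternatives and were conditions for naming. Their outcome was therefore fixed in advance, and all alternatives use the same library.

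Genes higher numbered 54 with cells regrouped after thinning (991 cells of 2 or more CCK counts against 1612 at 0), 58 with each cell thinned, 537 and 18 with minimums of 50 and 1000 counts, and 499 and 13 with thresholds at a log2 ratio of 0.32 and 1, against 103. Genes lower numbered 100 with CCK of 5 or more, 18 with CCK of 1 or more, 238 and 4 under those minimums and 564 and 2 at those thresholds, against 48. Thinning and higher minimums test fewer genes by construction. With CCK of 1 or more, 14 of 24 named genes kept 1.5-fold.

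TE families higher numbered 15 after depth standardisation, 5 thinned, 18 and 1 under the minimums and 32 and 3 at the thresholds, against 9. TE families lower, against 2, numbered 7 and 1 with CCK of 5 or more and 1 or more, 0 regrouped after thinning, 1 depth-standardised, 4 thinned, 5 as a mean over cells, 1 in cells of at least 8000 counts, 0 without cells above 25% mitochondrial counts, 22 and 0 under the minimums, 16 and 0 at the thresholds and 1 without the top cell. A pair of standardisations chosen after seeing the data, to the TE share and to the S phase and G2/M share, gave 10 and 1.

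The log2 ratio of the TE share (0.18) was 0.23, 0.16 and 0.13 with CCK of 5, 2 and 1 or more, 0.23 regrouped, 0.26 depth-standardised, 0.17 thinned, 0.16 as a mean over cells, 0.23 from 8000 counts, 0.22 without cells above 25% mitochondrial counts, 0.19 without the deepest 5% and 0.16 without mitochondrial and ribosomal protein genes in the denominator. The depth ratio (1.26) was 1.19 with CCK of 1 or more, 1.06 regrouped and 1.16 from 8000 counts. The median of genes under 1 CPM with DMSO (0.33) was 0.26 with CCK of 1 or more, 0.39 depth-standardised, 0.40 thinned, 0.24 with joined names, 0.47 from 1000 counts and 0.27 at equal TE share. The G2/M median (-0.21) was -0.02 at equal S phase and G2/M share, which that standardisation uses. Except where construction shows it, the cause was not tested.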
